A study of Homo sapiens with 3 samples.

Results

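The genes examined were those of the vacuolar proton pump (V-ATPase), the cathepsins and the lysosome-associated membrane proteins (LAMPs). They were picked by a rule on gene symbols that uses no expression value, although the rule was proposed with earlier results of these data known, among the rows on the primary chromosomes and the mitochondrial genome. The rule found 43 genes among 39320 rows present in the tables of all 3 libraries, of which 19324 were protein-coding. The 43 genes comprised 9 V0 subunits, 13 V1 subunits, 2 accessory proteins of the pump, 15 cathepsins and 4 LAMPs. TCIRG1, which codes for another isoform of the V0 a subunit, carries a different kind of symbol and was therefore counted among the related genes. The same holds for RNASEK, which also codes for a part of the pump. CTSA carries a cathepsin name and is a serine carboxypeptidase.

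HepG2 is a widely used cell line from a human liver tumour. Polyadenylated RNA was measured by RNA-seq in 3 libraries labelled HepG2 and WT, numbered as replicates 1 to 3. No treatment, age or time was given for them, and no other genotype or condition was included, so the comparisons were made between genes within a library and between libraries. Values are TPM, a measure of transcript abundance, which are scaled for gene length and sum to the same total in each library. Nothing in the labels said whether the replicates were separate cultures, so the spread between them may be technical.

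The label was checked against genes of secreted hepatocyte proteins, which HepG2 is known to express. All 12 measured were below 1 TPM in every library, as were 7511 of 19324 protein-coding genes. Of the 12, 9, ALB included, were listed at 0, against 19.8% of protein-coding genes. The summed level of the 12 was 0.0571 to 0.244 TPM, with TTR, AFP and TF highest. These defining markers were therefore listed at or near 0 and did not bear out the label. A value of 0 in tables without read counts does not show that a transcript was absent, and GALC, a widely expressed lysosomal hydrolase noticed after its values were seen, was also listed at 0 in all 3 libraries. The values given here are those of the libraries labelled HepG2. The mitochondrial tRNA row TRNC held 16.9%, 17.2% and 17.1% of the TPM total in replicates 1, 2 and 3, which lowered all other genes by a similar factor and left their order within a library as it was.

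Lysosomes are acidic organelles in which proteins, lipids and sugars are broken down. The V-ATPase acidifies them: its V1 sector, in the cytosol, hydrolyses ATP and drives rotation, and its V0 sector, in the membrane, carries protons across. Cathepsins are proteases that mostly work in this acidic lumen, and LAMPs are heavily glycosylated proteins of the lysosomal membrane. Many lysosomal genes carry a palindromic element near their start, the CLEAR element, which is bound by the MiT/TFE family of transcription factors.

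The sequences below show matches to CACGTG or TCACGTGA next to the starts of genes that were measured at high levels. These letters alone were searched for, not a longer form of the CLEAR element. RefSeq promoter windows of GRCh38.p14, which run from 250 bases before to 50 bases after a gene start, were given for 29 of the 43 genes. Both strands were covered by searching for CACGTG and for TCACGTGA, which are palindromes, and every TCACGTGA also contains CACGTG. The 4 genes with TCACGTGA and, for comparison, the CTSD window with CACGTG alone are printed 5′ to 3′ on the strand of the gene. The matched letters are in capitals.
ATP6V1G1, chr9:114587699-114587728, plus strand: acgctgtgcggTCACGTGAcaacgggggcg
LAMP1, chr13:113297199-113297228, plus strand: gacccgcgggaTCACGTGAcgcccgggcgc
ATP6V0D1, chr16:67481199-67481228, minus strand: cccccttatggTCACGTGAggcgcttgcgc
CTSA, chr20:45891298-45891327, plus strand: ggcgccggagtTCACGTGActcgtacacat
CTSD, chr11:1763958-1763985, minus strand: ccggccgcgccCACGTGaccggtccggg

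In GENCODE v44 the printed windows of LAMP1 and ATP6V0D1 lay outside any gene. Those of ATP6V1G1, CTSA and CTSD overlapped an annotated exon of the gene itself, since transcripts of one gene differ in where they start. The first capital letter stood 59 bases before the RefSeq start of ATP6V1G1, 29 before that of LAMP1, 60 before that of ATP6V0D1, 26 before that of CTSA and 47 before that of CTSD. The LAMP1 window held 6 copies of CACGTG, 2 of them within TCACGTGA, of which one spanned the gene start. A pair of CACGTG copies was found in each of the windows of ATP6V0B, CTSA and CTSF, and a single copy in that of ATP6V0E2.

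CACGTG was present in the windows of 8 of the 29 genes (27.6%), compared with 10.9% of 15842 protein-coding genes and 8.77% of all 27305 genes with a window. Counted by window instead of by gene, it was present in 7.26% of all 35116 windows. TCACGTGA was present in 4 of the 29 genes (13.8%), compared with 1.65% of protein-coding genes, 1.18% of all genes with a window and, by window, 0.980% of all windows. Among the 15 genes that had a window and at least 10 TPM in every library, 6 held CACGTG (40%) and 4 held TCACGTGA (26.7%). The shares among protein-coding genes at that level were 13.7% and 2.56%. Of the 5 genes with a window that lay between these levels and 1 TPM, 2 held CACGTG (40%) and 0 held TCACGTGA. None of the 9 genes with a window that were below 1 TPM in every library held CACGTG in it, against 7.55% of protein-coding genes below 1 TPM. These are matches of letters, given as a description without a test. The absence of a match says only that these letters are not in the window.

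At the RNA level, most of the pump and a small number of cathepsins and LAMPs were measured at substantial levels, while the remaining isoforms were low or listed at 0. In each of the libraries 29 of the 43 genes reached 1 TPM, a level reached by 59.5% of protein-coding genes. At least 10 TPM in every library was reached by 22 of the 43, against 40.3% of protein-coding genes. The other 14 genes were below 1 TPM in all 3 libraries, as were 7511 of 19324 protein-coding genes. Of the 14, ATP6V1G3, CTSE, CTSG, CTSO, LAMP3 and LAMP5 were listed at 0 throughout, and 19.8% of protein-coding genes were listed at 0 in the same way. The median over the 43 genes was 19.7 TPM, compared with 4.91 TPM over protein-coding genes and 0.0619 TPM over all rows.

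Summed over the 43 genes, the level was 2921.8, 2935.1 and 2891 TPM in replicates 1, 2 and 3, or 2916 ± 22.6 TPM (SD, n = 3). The V0 subunits took 877 ± 6.08 TPM of this, the V1 subunits 665 ± 6.79 TPM and the accessory proteins 263 ± 6.86 TPM. The cathepsins summed to 875 ± 15.1 TPM and the LAMPs to 236 ± 9.90 TPM. The V0 sum was above the V1 sum in every library by more than the spread, whereas the ranges of V0 and the cathepsins overlapped.

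**Figure D1:**
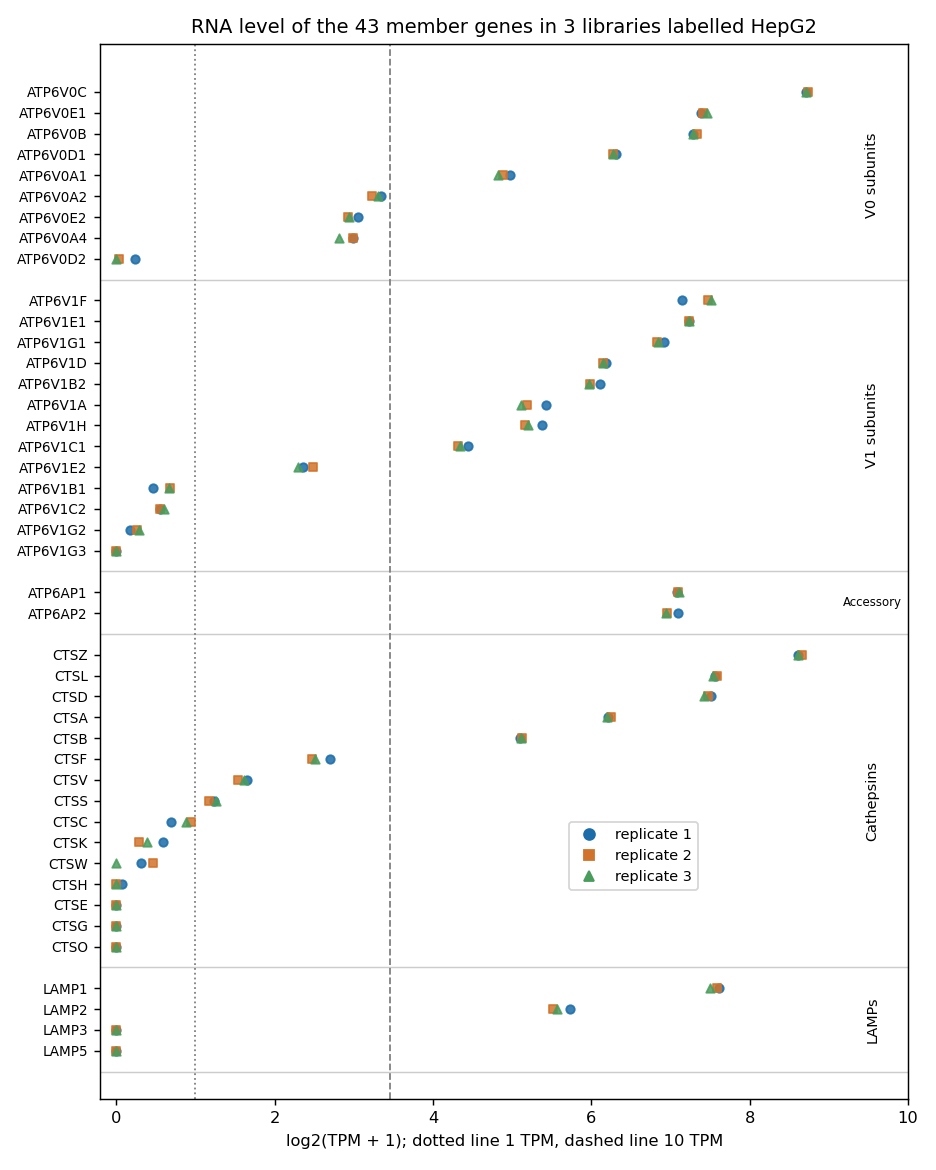
RNA level of the 43 genes as log2(TPM + 1), with one marker per library and the genes grouped by role. The dotted and dashed lines mark 1 and 10 TPM, and 22 genes lie to the right of the dashed line in all 3 libraries while 14 lie to the left of the dotted line.

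The V0 sector was led by the proteolipid ring. ATP6V0C (plus strand, chr16:2513726-2520223), which codes for the proton-carrying c subunit, had 418.60, 426.68 and 419.43 TPM in replicates 1, 2 and 3, or 422 ± 4.44 TPM. It was the highest of the 43 genes and exceeded 97.8% of the protein-coding genes with at least 1 TPM. ATP6V0B (chr1:43974648-43978300), which codes for the c″ proteolipid of the same ring, had 154.48, 160.66 and 154.37 TPM. In each library ATP6V0C was higher than ATP6V0B, by 2.69-fold on average in TPM and 5.09-fold in coverage. ATP6V0E1 (chr5:172983771-173035445), a small membrane subunit, had 166.88, 169.70 and 175.59 TPM. Its ranges overlapped neither those of ATP6V0B nor those of ATP6V0C.

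The d subunit links the ring to the central stalk. ATP6V0D1 (chr16:67438019-67481157) had 78.70, 76.71 and 76.65 TPM, and its paralog ATP6V0D2 had 0.179 and 0.0206 TPM in replicates 1 and 2 and was listed at 0 in replicate 3. The e subunit was also dominated by one gene, since ATP6V0E2 had 7.27, 6.58 and 6.67 TPM. It was 25.0-fold below ATP6V0E1 on average in TPM and 35.9-fold in coverage.

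The a subunit, which forms the path of protons through the membrane and directs the pump to its compartment, was the one V0 subunit without a dominant gene. ATP6V0A1 had 30.48, 28.49 and 27.35 TPM and was highest in replicate 1. ATP6V0A2, the isoform known from the Golgi, had 9.13, 8.38 and 8.85 TPM. ATP6V0A4, known from acid-secreting kidney cells, had 6.92, 6.92 and 6.06 TPM. Each of the 3 was measured in every library, and ATP6V0A1 held 65.1 ± 0.395% of their sum in TPM and 56.6 ± 0.316% in coverage. TCIRG1, the a3 isoform of osteoclasts and lysosomes, had 37.2, 39.5 and 35.6 TPM, above ATP6V0A1 in every library. The log2 ratio of ATP6V0A1 to TCIRG1 was -0.37 ± 0.09 in TPM, but it was 0.07 when the deposited coverage was used instead, so their order depended on the unit.

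In the V1 sector, ATP6V1F, ATP6V1E1 and ATP6V1G1 were highest. ATP6V1F (chr7:128862803-128865849), a part of the rotating stalk, had 140.37, 176.50 and 181.98 TPM. Replicate 1 lay below replicates 2 and 3, and the coefficient of variation of ATP6V1F, 13.6%, was the largest among the 22 genes whose mean was 10 TPM or more. ATP6V1E1 (chr22:17592136-17628822), of the peripheral stalks, had 148.88, 149.33 and 149.48 TPM, a coefficient of variation of 0.210% and the smallest of the 22. ATP6V1G1 (chr9:114587769-114598879), which pairs with E in these stalks, had 119.83, 112.51 and 114.10 TPM.

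ATP6V1D, the shaft of the rotor, had 71.97, 69.87 and 69.62 TPM. The row of ATP6V1D lies wholly within that of GPHN on the opposite strand, which had 15.9 TPM on average. The strand setting of the counting is not given in the sources used here, and how reads were divided between the 2 genes was not tested.

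ATP6V1A and ATP6V1B2 code for the subunits that alternate in the catalytic head. ATP6V1A had 42.00, 35.51 and 33.55 TPM and ATP6V1B2 had 67.94, 62.12 and 61.95 TPM, with replicate 1 highest for both. ATP6V1A was lower in every library, with a log2 ratio of -0.78 ± 0.09. In the deposited coverage the ratio had the opposite sign, 1.01, so their order depended on the unit as well. ATP6V1H, a regulatory subunit, had 40.51, 34.87 and 35.61 TPM, and ATP6V1C1, which bridges the stalks, had 20.75, 18.97 and 19.28 TPM. ATP6V1A and ATP6V1H overlapped in range, and ATP6V1C1 lay below both.

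The tissue-restricted V1 isoforms were low. ATP6V1E2, known from testis, had 4.12, 4.61 and 3.91 TPM. ATP6V1B1, the kidney and inner ear isoform, had 0.382, 0.599 and 0.588 TPM. ATP6V1C2 had 0.463, 0.468 and 0.513 TPM, and its row shares 1720 bp with PDIA6 on the opposite strand, which had 210.04 TPM. ATP6V1G2, the neuronal isoform, had 0.132, 0.196 and 0.220 TPM, and lies within a read-through row, ATP6V1G2-DDX39B, of the same strand with 1.51 TPM. ATP6V1G3 was listed at 0. Of 7 subunits with more than 1 gene by the symbol rule, 6 had a leading gene with over 90% of the subunit's TPM, from 96.1% for ATP6V0E1 to 99.9% for ATP6V0D1, and the V0 a subunit was the exception.

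Summing the paralogs gave the level of each of the 13 subunits, ordered from the V0 c subunit at 422 TPM through V0 e (178), V1 F (166), V0 c″ (157), V1 E (153), V1 G (116), V0 d (77.4), V1 D (70.5), V1 B (64.5), V0 a (44.2), V1 A (37.0) and V1 H (37.0) to V1 C at 20.1 TPM. The highest was 20.9 times the lowest. This order depended on the unit in part. In the deposited coverage, an alternative chosen after seeing the data, V0 c and V0 e were again the highest, but V1 B came last, with 122.09, 108.95 and 97.828 in replicates 1, 2 and 3, below V1 C in every library at 131.37, 117.7 and 107.21. V0 c″ moved from rank 4 to rank 6, below V1 E and V1 G, and V1 A moved from rank 11 to rank 9. Of the 12 pairs of neighbours in the TPM order, 3 overlapped between libraries, namely V0 e with V1 F, V1 F with V0 c″ and V1 A with V1 H. The V0 a sum leaves out TCIRG1, which had 37.4 TPM on average, and V0 a would stand higher in the TPM order with it. RNASEK, a part of the pump outside the symbol rule, is also left out of the order. It had 192.78, 200.97 and 213.56 TPM, above V0 e in every library. These are RNA levels, and a subunit's number of copies in the assembled pump is not measured by them.

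**Figure D2:**
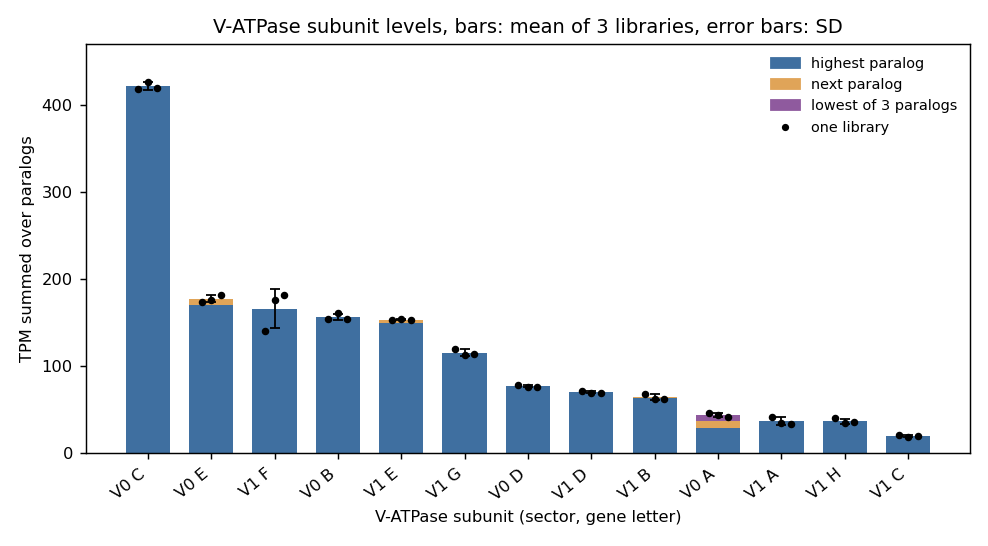
TPM of each V-ATPase subunit summed over its paralogs, with bars for the mean of 3 libraries split by paralog, error bars for the SD and a point for each library. In TPM the V0 c subunit stands at 422 and V1 C, the lowest, at 20.1, though V1 B is lowest in coverage, and V1 F has the widest spread. The V0 a bar leaves out TCIRG1, and RNASEK has no bar.

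The accessory proteins had levels close to each other. ATP6AP1 (chrX:154428669-154436516), a glycoprotein of the membrane sector, had 134.35, 135.86 and 136.62 TPM. ATP6AP2 (chrX:40580964-40606637), also called the prorenin receptor, had 136.23, 122.61 and 122.32 TPM. ATP6AP2 was higher than ATP6AP1 in replicate 1 alone, with a log2 ratio of -0.10 ± 0.10, and the ranges of both genes overlapped.

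Cathepsin RNA was concentrated in few genes. CTSZ (chr20:58995185-59007254), a carboxypeptidase also called cathepsin X, had 389.04, 403.49 and 388.20 TPM, or 394 ± 8.60 TPM, which was 45.0% of all cathepsin TPM. CTSL (chr9:87725437-87731469), a cysteine endopeptidase, had 187.91, 191.03 and 185.33 TPM, and CTSD (chr11:1752755-1763927), the main aspartic protease of lysosomes, had 181.65, 177.23 and 170.99 TPM. The CTSL range lay wholly above that of CTSD in TPM, with a log2 ratio of 0.09 ± 0.04, but in coverage CTSD was higher in every library and the ratio was -0.47 ± 0.04, so their order depended on the unit. These 3 genes took 86.7% of cathepsin TPM.

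CTSA, which protects β-galactosidase and neuraminidase in the lysosome, had 72.75, 75.27 and 72.63 TPM. CTSB, a cysteine protease of lysosomes, had 33.29, 33.94 and 33.43 TPM. CTSB was lower than CTSL in every library, with a log2 ratio of -2.45 ± 0.01, and CTSD was 5.26-fold higher than CTSB on average in TPM and 10.4-fold higher in coverage. By catalytic class, the 11 cysteine cathepsins held 71.4% of the sum, the 2 aspartic ones 20.2% and the 2 serine ones 8.41%.

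The other 10 cathepsins were low. CTSF had 5.52, 4.53 and 4.69 TPM. CTSV, the close relative of CTSL, had 2.15, 1.91 and 2.06 TPM, 92.5-fold below CTSL on average in TPM and 63.0-fold in coverage. CTSS, known from antigen-presenting cells, had 1.35, 1.26 and 1.40 TPM. None of these 3 reached 10 TPM in any library.

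CTSC, which activates granule serine proteases, had 0.609, 0.927 and 0.839 TPM, and CTSK, the collagen-degrading protease of osteoclasts, had 0.512, 0.217 and 0.311 TPM. CTSW, of cytotoxic lymphocytes, had 0.247 and 0.378 TPM and was listed at 0 in replicate 3, and CTSH was above 0 only in replicate 1, at 0.0535 TPM. CTSE, CTSG and CTSO were listed at 0 in every library. Markers of the cells in which several of these are known to be abundant were also low. All 8 macrophage and blood markers listed were below 1 TPM in every library, with a summed level of 0.765 to 1.01 TPM, of which CD14 was the highest at 0.694 TPM, followed by CSF1R and ITGAM, and PTPRC was listed at 0. CD68, a lysosomal membrane protein also used as a macrophage marker, was not among the 8. It had 8.41, 9.48 and 10.3 TPM. All 6 osteoclast and kidney intercalated cell markers were below 1 TPM, with a sum of 0.134 to 0.294 TPM, led by CALCR, ACP5 and OSCAR. For comparison, 7511 of 19324 protein-coding genes were below 1 TPM in every library.

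Of the LAMPs, LAMP1 (chr13:113297239-113323672) had 193.94, 192.09 and 179.82 TPM, and LAMP2 (chrX:120426148-120469349), whose isoforms include the receptor of chaperone-mediated autophagy, had 52.26, 44.69 and 46.59 TPM. LAMP1 held 79.8% of the LAMP sum and was 3.96-fold higher than LAMP2 on average in TPM and 8.76-fold higher in coverage. Both were highest in replicate 1. LAMP3, known from mature dendritic cells, and LAMP5, known from neurons and plasmacytoid dendritic cells, were listed at 0.

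A total of 21 pairs of related genes were compared within each library, and 17 gave a log2 ratio after 1 was added to each TPM value, which understates the difference where a gene is low. The other 4 had a partner listed at 0 in every library. For 16 of the 17 pairs the same gene was higher in all 3 libraries, and ATP6AP2 with ATP6AP1 was the exception. An exact permutation test that flips signs over libraries, two-sided, cannot go below p = 0.25 at this size. It gave that exact p for each of the 16 pairs (0.266 after Benjamini-Hochberg adjustment over 17 pairs) and an exact p of 0.5 for the other, so no pair could pass 0.05. The largest ratios were 6.62 ± 0.10 for ATP6V1G1 to ATP6V1G2, 6.34 ± 0.07 for CTSL to CTSS, 6.20 ± 0.11 for ATP6V0D1 to ATP6V0D2 and 5.96 ± 0.08 for CTSL to CTSV. The remaining isoform pairs gave 5.42 ± 0.19 for ATP6V1B2 to ATP6V1B1, 4.85 ± 0.10 for ATP6V1E1 to ATP6V1E2, 4.45 ± 0.10 for ATP6V0E1 to ATP6V0E2 and 3.80 ± 0.08 for ATP6V1C1 to ATP6V1C2. Smaller ratios were 1.96 ± 0.06 for ATP6V0A1 to ATP6V0A4 and 1.60 ± 0.07 for ATP6V0A1 to ATP6V0A2.

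**Figure D3:**
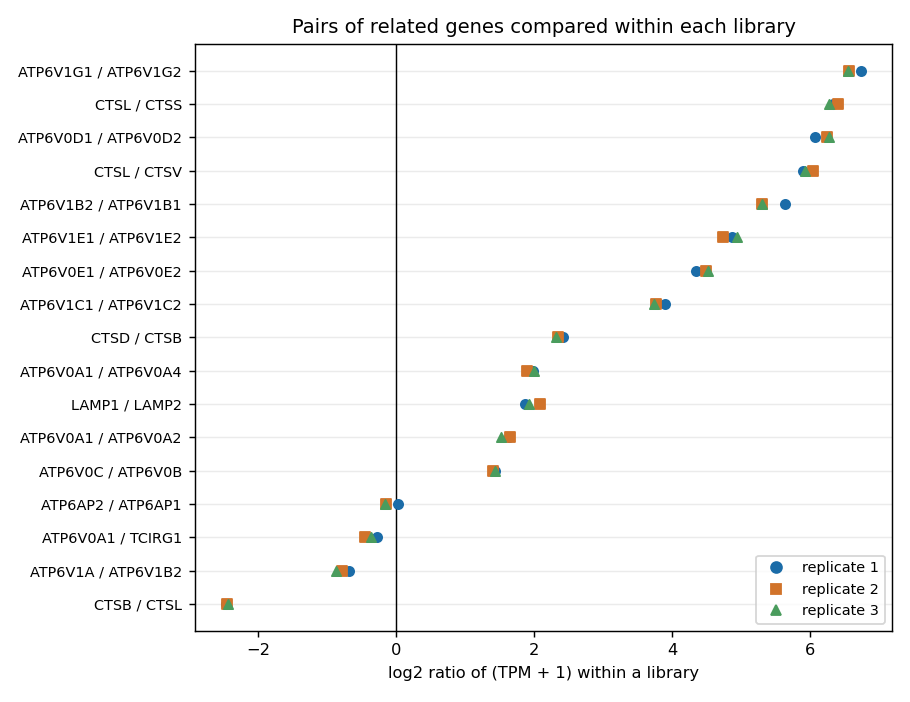
Log2 ratio of (TPM + 1) within each library for the 17 pairs with both genes measured, one marker per library. All markers of a pair lie on one side of 0 except for ATP6AP2 to ATP6AP1, and the SD within a pair is at most 0.19.

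The genes varied little between libraries. Among the 22 whose mean was 10 TPM or more, log2(TPM + 1) spanned more than 1 in 0 genes. The share of all 8419 rows at this level in which it did was 0.273%, so this count does not set the 22 genes apart. The largest range was 0.37, for ATP6V1F. The median coefficient of variation was 2.82%, compared with 4.88% over the 8419 rows and 4.77% over protein-coding genes. The rows compared were not matched to the 22 genes for level. Replicate 1 gave the highest value for 12 of the 22 genes (54.5%) and for 62.5% of all rows at this level. Replicate 3 gave the lowest for 12 of the 22 (54.5%) and for 49.3% of all rows. Relative depth, taken from the highest ratio of coverage to FPKM, was 1.16 in replicate 1 and 1.12 in replicate 2 when replicate 3 was set to 1, and its part in these orders was not tested.

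The tables give coverage (the mean depth over a gene's bases) beside FPKM, and their ratio was set relative to the highest of that library. Among the 22 genes averaging 10 TPM or more, this relative ratio was 1 for ATP6V1A, ATP6V0E1, ATP6V1G1, ATP6V1D, ATP6V1C1, ATP6AP2, CTSZ and CTSD. It was 0.358, 0.358 and 0.360 for LAMP2 and 0.286, 0.285 and 0.286 for ATP6V1B2 in replicates 1, 2 and 3. These were the only 2 of the 22 genes below 0.5, where 27.6% of all genes averaging 10 TPM or more lay. CTSB was at 0.505 and ATP6V0B at 0.504 in replicate 1. For the genes with a low ratio, the level relative to other genes was therefore lower by coverage than by TPM, as in the pair of ATP6V1A and ATP6V1B2.

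**Figure D4:**
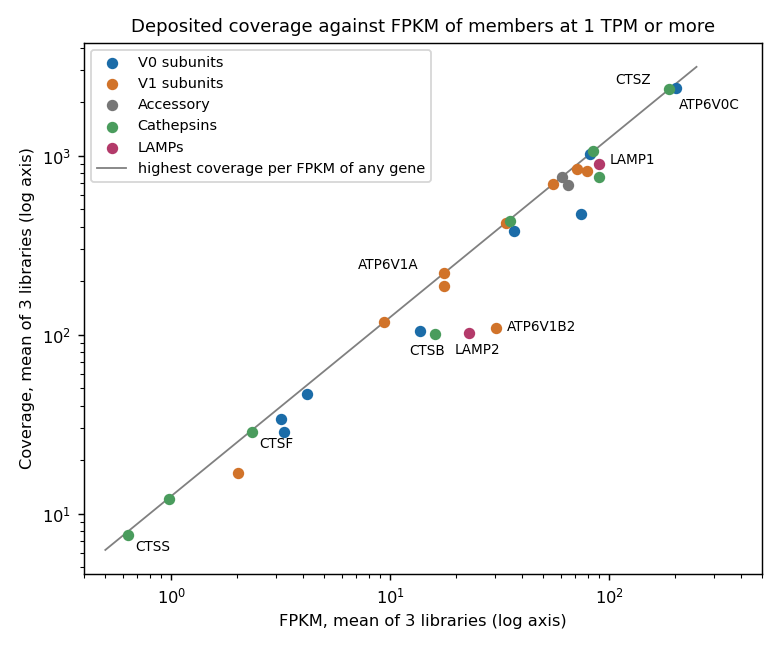
Deposited coverage against FPKM for the genes with at least 1 TPM in every library, as means of 3 libraries on log axes, coloured by role. The line marks the highest ratio of coverage to FPKM of any gene, and LAMP2 and ATP6V1B2 lie furthest below it among those averaging 10 TPM or more.

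Other genes of the lysosomal system are given beside the 59.5% of protein-coding genes that reached 1 TPM in each library. Of 37 genes listed as soluble acid hydrolases or their activator proteins, 36 were measured and 33 reached this level, with a median of 25.5 TPM. PSAP, the precursor of the saposins, had 398 ± 6.44 TPM, the dipeptidase DPP7 115 ± 3.38 TPM and the thioesterase PPT1 100.4 ± 3.94 TPM. All 18 genes listed as other lysosomal membrane proteins, which include the soluble NPC2, had at least 1 TPM, with a median of 22.9 TPM. The highest were CD63 at 512 ± 20.6 TPM, LAPTM4A at 290.2 ± 5.89 TPM and LAPTM4B at 285 ± 15.7 TPM. All 9 genes of mannose 6-phosphate sorting, which carries hydrolases to lysosomes, had at least 1 TPM, with M6PR at 115 ± 2.96 TPM, IGF2R at 37.5 ± 2.53 TPM and GGA2 at 29.9 ± 1.94 TPM.

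Of 15 genes listed for V-ATPase assembly and regulation, 13 were measured and 11 had at least 1 TPM. The highest were RNASEK at 202 ± 10.5 TPM and TCIRG1 at 37.4 ± 1.94 TPM, which code for parts of the pump itself. Next was the assembly chaperone VMA21 at 24.1 ± 3.32 TPM. Ragulator and the Rag GTPases tether mTORC1 to the lysosome. Of 12 genes of these and of the folliculin complex (FLCN, FNIP1 and FNIP2), 11 had at least 1 TPM. The highest were LAMTOR5 at 160.03 ± 8.67 TPM, LAMTOR2 at 149.95 ± 5.87 TPM and LAMTOR1 at 121 ± 0.897 TPM. Of the 4 MiT/TFE factors, TFE3 had 103 ± 1.57 TPM, MITF 32.9 ± 3.15 TPM, TFEB 4.29 ± 0.465 TPM and TFEC 0.0270 ± 0.0238 TPM. TFE3 was the highest of the 4 in TPM and in coverage. TFEB was lower than MITF in every library in TPM, but in coverage TFEB was higher, at 14.654, 17.313 and 15.802 against 13.956, 11.544 and 10.359, so the order of these 2 genes depended on the unit.

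Among 15 inhibitors of cathepsins, CST3 (cystatin C, secreted) had 203 ± 3.44 TPM and CSTB (cytosolic) had 160 ± 5.25 TPM. The other 13 were below 1 TPM in every library and 10 of the 15 were listed at 0. Among protein-coding genes, 7511 of 19324 were below 1 TPM in every library and 19.8% were listed at 0. CST6 had 0.138 TPM in replicate 3 and was listed at 0 in replicates 1 and 2.

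**Figure D5:**
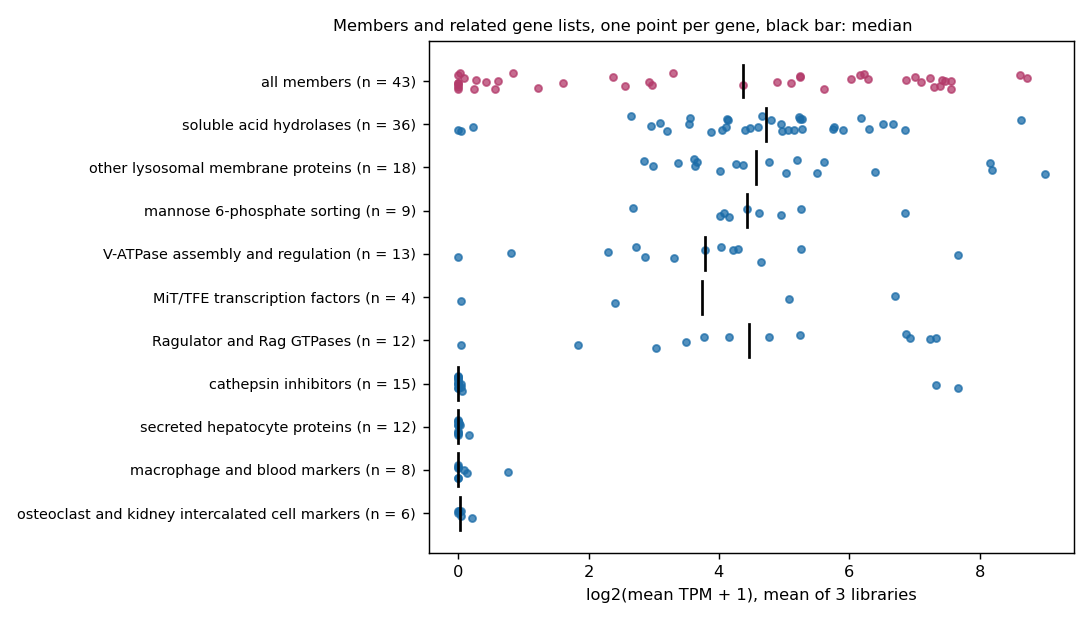
Mean level of each gene over 3 libraries as log2(mean TPM + 1), one point per gene, with a bar at each median. Shown are the 43 genes, related gene lists, secreted hepatocyte proteins and markers of other cells. The medians of the lysosomal lists lie above those of the cathepsin inhibitors and of the 3 marker lists, hepatocyte proteins included, which are near 0.

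Rows of 15 of the 43 genes overlap that of another gene, 12 of them on the opposite strand. The LAMP1 row shares 421 bp with GRTP1, which had 14.0 TPM, and the ATP6V1E2 row shares 169 bp with RHOQ, which had 20.4 TPM and was thus more abundant than ATP6V1E2 itself. CTSA overlaps SPATA25, NEURL2 and PLTP, at 2.99, 0.491 and 2.89 TPM, and CTSW shares 2 bp with FIBP. The part of these overlaps in the levels was not tested.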

How the data were processed

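RNA-seq of the 3 libraries used paired-end reads of 150 bp. FastQC 0.11.8, Trim Galore 0.6.2 and STAR 2.6.1a on GRCh38 are named by the study, and StringTie is added in the submitters' processing notes with no role or version. The annotation and the strand setting are not given in the sources used here. The authors deposited TPM, scaled for length and to the same total in each library. They also deposited FPKM, scaled for length and library size. The coverage deposited by the authors is a mean depth per base, not scaled for library size. Read depth is unknown without counts, so no counting interval is given, and precision is the SD over libraries.

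Tables were joined on gene, strand, start and end, and TPM entered without further scaling. Genes were selected by symbol, and every selected gene is named. Those averaging 10 TPM or more, and both genes of each pair, are given in every library, and the 3 highest of each related list are named, with TCIRG1 and the MiT/TFE factors. The genes and lists were chosen with earlier results of these data known. Pairs were tested by an exact sign-flip permutation test. The range calculation was tested on simulated data. Promoters came from RefSeq (GRCh38.p14) and exon overlaps from GENCODE v44. Alternatives were other units, scalings, pseudocounts and minimum levels, and leaving out each replicate. Python 3.11.15, numpy 2.4.6, pandas 2.3.3 and matplotlib 3.10.9 were used.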

Additional observations from a re-analysis of the deposited data

How the results depend on the processing

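No paired analysis was possible because all 3 libraries belong to 1 condition. Apart from the levels of single genes, 231 alternative values were computed, of which 170 were for pairs and 21 were counts of genes. Of those for pairs, 167 kept their direction. Each count stayed within 1.5 times the one reported. Of the sums and medians, 20 moved by more than the spread between libraries. The 3 that reversed were all from coverage in place of TPM: ATP6V0A1 to TCIRG1 became 0.066, ATP6V1A to ATP6V1B2 became 1.01 and ATP6AP2 to ATP6AP1 became 0.14. CTSL to CTSD, added after seeing the data, went from 0.09 to -0.47 in coverage. The cause was not tested beyond the low coverage per FPKM of ATP6V1B2.

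Levels moved with the scale, as each alternative is built to do. Without mitochondrially encoded genes the sums were 2258 TPM for the V-ATPase with its accessory proteins, 1095 TPM for cathepsins and 295.88 TPM for LAMPs, and the median was 24.6 TPM. With TRNC set from its coverage they were 2168.8, 1051.7 and 284.2 TPM, and the median was 23.6 TPM. In FPKM the sums were 859.9, 416.98 and 112.66 and the median 9.37, and in coverage they were 9353.2, 4749.6, 997.95 and 101.05. The main sums were 1804.5, 875 and 236 TPM.

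With each replicate left out, the number of genes with at least 1 TPM in every library stayed at 29 and the median lay between 19.1 and 20.0 TPM. That number was 27 in FPKM, 31 in coverage, 34 at a minimum of 0.1 TPM and 22 at 10 TPM. The background of the median is given in the report for protein-coding genes and for all rows. Levels below 1 TPM are the least certain, since the number of reads behind them is unknown.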
